A study of Rattus norvegicus with 6 samples.

Results

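Mitochondrial ribosomal proteins were followed in kidneys of congenic rats and of the salt-sensitive rats from which they were bred. A probe set, the group of short probes that reads 1 transcript, was taken when its platform symbol was Mrpl or Mrps followed by a number, in either letter case. Of 14217 genes with a single platform symbol, 76 met the rule through 100 probe sets, 49 Mrpl genes (large subunit) and 27 Mrps genes (small subunit). Each gene was represented by its probe set of highest mean signal over the 6 arrays, so that the strain of an array played no part in that choice.

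The mitochondrial ribosome translates the few messenger RNAs of mitochondrial DNA, all of which encode membrane subunits of the respiratory chain and ATP synthase. Its RNA comes from mitochondrial DNA, whereas its proteins are made in the cytosol from nuclear genes and imported. Many of these proteins have bacterial counterparts, and the others exist only in mitochondrial ribosomes. Kidney tubules, the proximal tubule above all, are rich in mitochondria because reabsorption of filtered salt and solutes consumes ATP.

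Whole-kidney RNA of adult male rats was hybridised to 6 Affymetrix 1-colour arrays, 1 per animal. The 3 congenic rats, S.LEW(D1MCO4x1x3Bx1), are S rats in which a stretch of chromosome 1 comes from the Lewis strain. The 3 parental rats are inbred Dahl salt-sensitive animals (SS/Jr, here S), which become hypertensive, so that all 6 share the S genome outside that stretch. No label gives the ends of that stretch, the diet or the exact ages. Each strain is a single inbred line, and rats of 1 line are genetic repeats of each other. In whole tissue, fewer cells of a type and less RNA per cell cannot be told apart.

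Values are scaled signals on the authors' linear scale, given as mean ± SD over 3 rats. They are levels of a probe set and cannot be set against those of another probe set as amounts of transcript. Array medians ran from 162 to 178. In all, 15521 of 31042 probe sets, those above the median mean signal, were tested. Kidney markers were abundant on each array. Lrp2, the proximal tubule endocytic receptor megalin, read 18808, 20298 and 21370 in congenic kidneys, against 18689, 17465 and 20005 in S kidneys. Aqp2, the collecting duct water channel, read 9388, 8009 and 7880 in congenic kidneys, against 8933, 7834 and 6614 in S kidneys. The 3' to 5' signal ratio of GAPDH, a sign of RNA integrity, ran from 1.12 to 1.197 in congenic and from 1.11 to 1.18 in S kidneys. That of beta-actin ran from 1.94 to 2.06 in congenic and from 1.99 to 2.30 in S kidneys, and its part in the results was not tested.

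The comparison asked whether the donor segment came with another level of mitochondrial ribosomal protein transcripts. No member passed the threshold of adjusted p 0.05 in limma, where 0 of 15521 probe sets (0.0%) passed. The smallest adjusted p of a member was 0.312, that of Mrps11. All 76 members lay above the filter on low signals, with mean signals from 374 to 5546. The log2 differences, congenic minus S, ran from -0.29 for Mrpl34 to 0.28 for Mrps11, folds of 0.818 and 1.21. The median within-strain SD of the members was 0.10 on the log2 scale, against 0.16 over all probe sets tested. The 95% intervals of the differences, not adjusted for their number, lay within a 1.5-fold change in either direction for 75 of the 76 members. The exception was Mrps27, a pentatricopeptide repeat protein of the small subunit, with an interval of -0.14 to 0.66.

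At an unadjusted limma p below 0.05 there was 1 member with higher signals in congenic kidneys, Mrps11, where 4.72% of all probe sets tested passed in that direction. There was also 1 with lower signals, Mrpl34, where 5.61% of all probe sets tested passed in that direction. Both shares, 1 of 76 members each, were below the background, which was 10.3% for both directions together.

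The signs of these small differences were unequal. In the large subunit 37 of 49 genes had higher means in congenic kidneys, with a median log2 difference of 0.06 and a middle range of 0.0021 to 0.13. In the small subunit 23 of 27 did, with a median of 0.07 and a middle range of 0.03 to 0.13. Over all probe sets tested 48.2% were positive and the median was -0.0087. Genes of 1 complex can vary together between animals, so the number of positive members is a description and carries no test. Brighter probe sets in general leaned the same way: among those above the upper quartile of signal the median was 0.02. The median of the large subunit rested in part on S replicate 3, without which it was 0.02 and 50 of all 76 members were positive, against 60 with it. With each array centred on its median log2 signal, 70 of the 76 were positive, and the median of all probe sets tested was then 0.06.

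**Figure D1:**
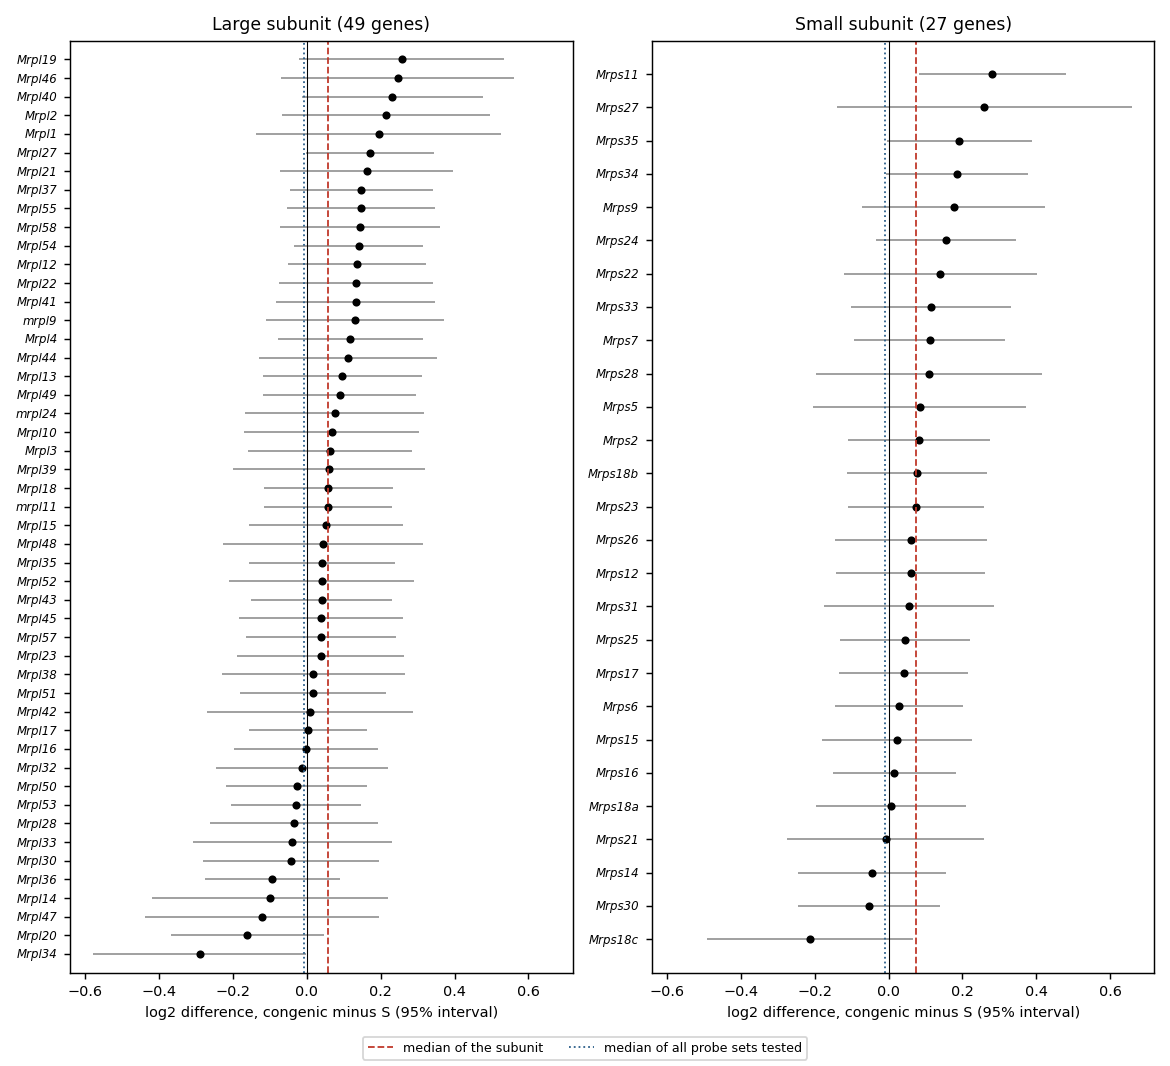
Log2 difference in kidney signal, congenic minus S, of each member, with its 95% interval from limma (horizontal line), for 49 large subunit genes (left) and 27 small subunit genes (right). The dashed line marks the median of the subunit (0.06 and 0.07) and the dotted line that of all probe sets tested (-0.0087), and most intervals span 0.

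The 3 congenic values lay all above the 3 S values for 10 members, 13.2% of the 76, where 7.98% of all probe sets tested did. These were Mrpl19, Mrpl21, Mrpl27, Mrpl40 and Mrpl54 of the large subunit and Mrps2, Mrps11, Mrps24, Mrps34 and Mrps35 of the small. The 3 congenic values lay all below for 2 members, 2.63%, against a background of 7.99%, namely Mrpl34 and Mrps18c. With the arrays centred, 19 members lay all above, where 13.9% of all probe sets tested did, and 0 all below, where 3.58% did. Mrpl21 and Mrps2 are named after their values were seen. The exact permutation test of a single gene cannot give less than p = 0.1 with 3 rats against 3, and it gave p = 0.1 for each of these 12.

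Mrps11, a small subunit gene with a bacterial counterpart, had the smallest p of all members. It encodes the counterpart of bacterial S11 on the platform of the subunit, beside the messenger RNA exit. Its probe set read 1540, 1483 and 1540 in congenic kidneys, against 1172, 1310 and 1278 in S kidneys. The congenic rats were close to each other and all above the S rats. The log2 difference was 0.28 (SE 0.09), and its 95% interval ran from 0.08 to 0.48 (limma, adjusted p = 0.312). With any 1 rat left out or another normalisation it stayed between 0.23 and 0.35 and did not pass.

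Mrps11 and Mrpl46 were the only members adjacent in gene order among those matched. They run in opposite directions from starts 234 bases apart in GRCr8, 1 gene for each subunit, and had log2 differences of 0.28 and 0.25. For Mrpl46 the strains overlapped, and its difference was 0.06 without S replicate 3. The promoter windows of the pair, 250 bases before to 50 after the start, share 267 bases. Whether the pair is controlled together was not tested. The window of Mrpl46 is shown beside that of Mrps11 for this shared stretch, followed by those of Mrpl27 and Mrpl34, which had the smallest p in the large subunit. Mrps35 was not matched. Sequences are RefSeq's, build GRCr8, 5' to 3' on the gene's strand: Mrps11 at chr1:142117014-142117313 (plus strand), Mrpl46 at chr1:142116981-142117280 (minus strand), Mrpl27 at chr10:80092095-80092394 (plus strand) and Mrpl34 at chr16:18186197-18186496 (plus strand). Capitals mark motifs.
Mrps11: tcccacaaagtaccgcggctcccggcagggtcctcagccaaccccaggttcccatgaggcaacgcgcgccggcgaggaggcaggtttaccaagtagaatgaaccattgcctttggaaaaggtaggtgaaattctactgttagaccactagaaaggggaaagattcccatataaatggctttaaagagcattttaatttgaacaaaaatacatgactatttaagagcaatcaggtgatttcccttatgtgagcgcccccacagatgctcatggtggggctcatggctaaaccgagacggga
Mrpl46: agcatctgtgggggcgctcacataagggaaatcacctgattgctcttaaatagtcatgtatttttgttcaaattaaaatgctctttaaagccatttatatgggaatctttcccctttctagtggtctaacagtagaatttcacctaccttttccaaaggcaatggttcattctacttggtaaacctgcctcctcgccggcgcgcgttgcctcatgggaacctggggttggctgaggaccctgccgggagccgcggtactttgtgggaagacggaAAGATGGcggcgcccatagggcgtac
Mrpl27: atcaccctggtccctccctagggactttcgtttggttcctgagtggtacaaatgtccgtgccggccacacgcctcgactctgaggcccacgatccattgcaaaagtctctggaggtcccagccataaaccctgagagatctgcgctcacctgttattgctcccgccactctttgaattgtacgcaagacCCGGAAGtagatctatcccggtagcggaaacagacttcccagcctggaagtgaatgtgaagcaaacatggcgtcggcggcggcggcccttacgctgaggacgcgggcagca
Mrpl34: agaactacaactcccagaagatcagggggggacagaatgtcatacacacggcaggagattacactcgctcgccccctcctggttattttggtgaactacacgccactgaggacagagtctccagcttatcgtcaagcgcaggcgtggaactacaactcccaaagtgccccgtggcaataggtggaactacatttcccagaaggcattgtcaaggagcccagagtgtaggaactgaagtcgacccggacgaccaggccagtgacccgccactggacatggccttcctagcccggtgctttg

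The motifs searched, on both strands, were CCGGAAG (bound by ETS factors such as GABPA), TGCGCA (within the NRF1 site), AAGATGG (YY1) and GGGCGG (SP1), all factors known to act on nuclear genes for mitochondria. Promoter windows matched 62 of the 76 members, and the first window listed for a gene was used. CCGGAAG was in 20 of the 62 windows (32.3%), against 9.22% of 27457 windows of all genes and 11.2% of those of protein-coding genes. TGCGCA was in 25.8%, against 7.68% of all and 9.18% of protein-coding windows. AAGATGG was in 24.2%, against 7.3% and 7.58%, and GGGCGG in 48.4%, against 34.9% and 43.1%. Of the windows shown, that of Mrpl27 held 1 CCGGAAG and that of Mrpl46 held 1 AAGATGG, while the others held none, and no motifs overlapped there. These counts describe letters in a window and were not tested.

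Mrps24, the counterpart of bacterial S3, read 1717 ± 37.9 in congenic and 1543 ± 79.6 in S kidneys, a log2 difference of 0.16, or -0.13 over the mean of its probe sets. The other probe set of Mrps24 lay below the filter and had a log2 difference of -0.42 with a standard error of 0.56. Mrps9, a protein of the subunit head, read 1951, 1444 and 1582 in congenic kidneys, against 1315, 1519 and 1546 in S kidneys. For Mrps9 the strains overlapped, because congenic replicate 2 was below S replicates 2 and 3, and the log2 difference was 0.18, or 0.05 without congenic replicate 1. Mrps18c, 1 of several S18-type proteins, read 449, 482 and 509 in congenic kidneys, against 569, 569 and 530 in S kidneys. Its log2 difference was -0.21 (SE 0.13; limma, adjusted p = 0.592). Mrps14 and Mrps21, counterparts of bacterial S14 and S21, had log2 differences of -0.04 and -0.01, which were above 0 with the arrays centred. Mrps16, whose human gene is mutated in a mitochondrial translation disorder, read 2950 ± 50.5 in congenic and 2920 ± 89.8 in S kidneys, a log2 difference of 0.02 that turned to -0.0033 after quantile normalisation. In all, 12 of the 15 measured small subunit genes with a bacterial counterpart were positive, with a median of 0.06.

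Among the small subunit proteins found only in mitochondrial ribosomes, 10 of 10 measured genes had positive differences, with a median of 0.10. None passed the adjusted threshold, and in 2 of the 10 all congenic values lay above all S values, where 7.98% of all probe sets tested did. Mrps35 read 1410, 1496 and 1420 in congenic kidneys, against 1237, 1307 and 1243 in S kidneys, a log2 difference of 0.19 (SE 0.09). Mrps34, mutated in human Leigh syndrome, read 1737, 1721 and 1647 in congenic kidneys, against 1589, 1486 and 1418 in S kidneys. Its log2 difference was also 0.19 (limma, adjusted p = 0.499). Mrps27 had the lowest signals of the subunit, 396, 506 and 327 in congenic kidneys, against 339, 291 and 388 in S kidneys. These values overlapped, and the log2 difference of 0.26 had a standard error of 0.19, while its other tested probe set had -0.23. Mrps25 had the highest mean signal of the subunit and a log2 difference of 0.04. Congenic replicate 2 carried much of the group: its mean log2 deviation over these 10 genes was 0.16, against 0.02 and 0.0050 in the other two congenic rats.

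The named members differed in the size of their signals and in how far single rats spread, as the plot of signals by rat shows for 8 of them.

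**Figure D2:**
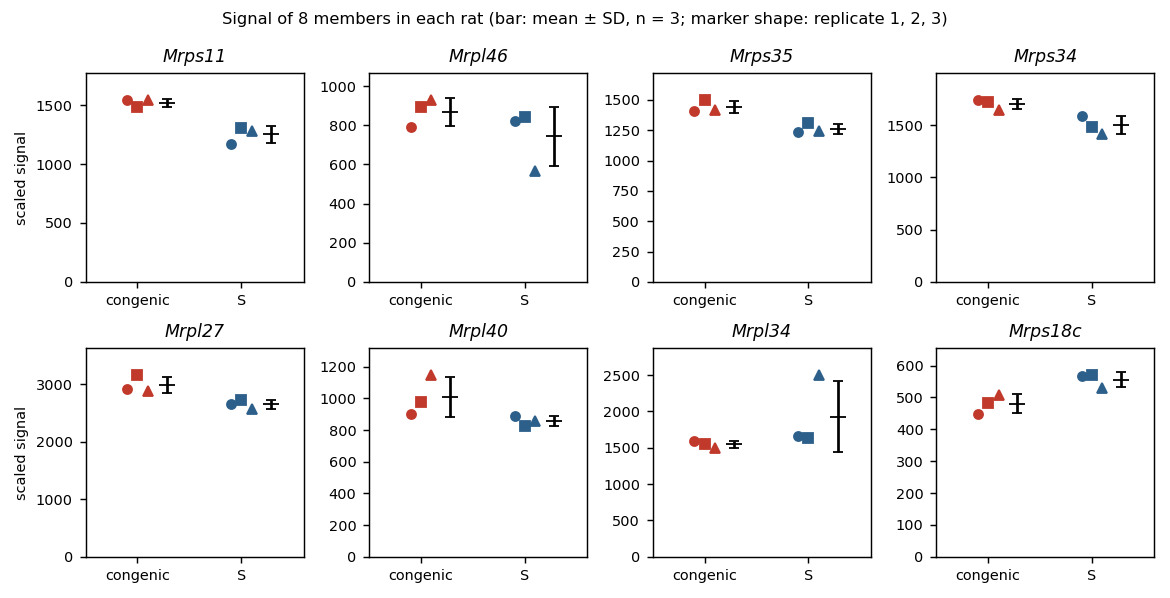
Scaled signal of 8 members in each rat (linear axis from 0), with congenic rats left of S rats in each panel and the mean ± SD of 3 rats as a bar. Congenic values lie above S values for Mrps11, Mrps35, Mrps34, Mrpl27 and Mrpl40, below them for Mrps18c and Mrpl34, and overlap for Mrpl46; for Mrpl34 the S rat at 2497 stands apart.

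Of 30 large subunit genes with a bacterial counterpart, 20 were positive, with a median of 0.06. Mrpl27, whose bacterial counterpart reaches towards the catalytic centre, read 2919, 3154 and 2891 in congenic kidneys, against 2657, 2727 and 2572 in S kidneys. Its log2 difference was 0.17 (SE 0.08; limma, adjusted p = 0.487). Mrpl19 read 909, 903 and 962 in congenic kidneys, against 802, 902 and 640 in S kidneys, so that congenic replicate 2 was barely above S replicate 2. Its log2 difference of 0.26 was 0.12 without S replicate 3, the lowest of the S rats.

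Mrpl34 had the lowest log2 difference of all members, -0.29 (SE 0.14; limma, adjusted p = 0.482). It read 1590, 1549 and 1500 in congenic kidneys, against 1660, 1631 and 2497 in S kidneys. S replicate 3 was high, and without it the log2 difference was -0.09. Further genes with lower congenic means were Mrpl20 at -0.16, Mrpl36 at -0.09, Mrpl47 at -0.12 and Mrpl14 at -0.10, and in each of these 4 the strains overlapped. Mrpl15 and Mrpl17, with the highest mean signals of the subunit, had 0.05 and 0.0021, the second turning to -0.035 after quantile normalisation. Mrpl1, a protein of the mobile stalk beside the tRNA exit site, read 573, 843 and 799 in congenic kidneys, against 550, 704 and 665 in S kidneys, which overlapped.

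Of 19 large subunit genes found only in mitochondrial ribosomes, 17 were positive, with a median of 0.04. Mrpl40, a protein of the central protuberance at the top of the subunit, read 903, 978 and 1146 in congenic kidneys, against 887, 824 and 856 in S kidneys. Its log2 difference was 0.23 (SE 0.11; limma, adjusted p = 0.507), while its dimmer second probe set had -0.11. Mrpl54 read 3420 ± 196 in congenic and 3103 ± 146 in S kidneys, a log2 difference of 0.14. Mrpl46, also of the central protuberance, read 790, 893 and 928 in congenic kidneys, against 821, 841 and 569 in S kidneys. The low S replicate 3 set most of that difference, which was 0.25 with all rats and 0.06 without it.

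Grouped by place in the structure, 8 of 9 central protuberance genes were positive, with a median of 0.06. At the polypeptide exit, where nascent chains leave towards the inner membrane, 7 of 8 were positive, with a median of 0.05. All 4 genes of the stalks, where translation factors and leaving tRNAs are handled, were positive, with a median of 0.10. In the head of the small subunit 6 of 7 measured genes were positive, with a median of 0.12. Under an adjusted p of 0.05 the count of genes passing was 0 in each of these groups, and no difference between the groups was tested.

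Mrps30 and Mrps18a carry small subunit symbols, although structures of the mammalian ribosome place their proteins in the large subunit. Mrps30 read 1700 ± 97.0 in congenic and 1764 ± 80.5 in S kidneys, a log2 difference of -0.05, or 0.017 with the arrays centred. Mrps18a read 1531 ± 109 in congenic and 1522 ± 76.7 in S kidneys, a log2 difference of 0.01, or -0.0075 after quantile normalisation. The strains overlapped for both.

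The members lay on 18 chromosomes. Of 13 on chromosome 1, the chromosome of the donor segment, 11 were positive, with a median of 0.06. Mrpl36, the counterpart of bacterial L36, is only 5 places from Adamts16, the gene named in the title of the series, in the order of protein-coding genes of assembly GRCr8. It read 1962, 2162 and 2028 in congenic kidneys, against 2243, 2224 and 2097 in S kidneys. The strains overlapped, and the log2 difference was -0.09, its 95% interval running from -0.28 to 0.09. Next in order came Mrpl18, 74 genes away, with 0.06. Mrps11 lay 1225 genes away.

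Between rats, the members' mean log2 deviation from each gene's 6-array mean was small. Over the large subunit it was 3.69e-04, 0.07 and 0.02 in congenic replicates 1 to 3, against -0.03, 0.03 and -0.08 in S replicates 1 to 3. The strains overlapped, since S replicate 2 was above congenic replicates 1 and 3. Over the small subunit it was 0.04, 0.07 and 0.0061 in congenic replicates, against -0.05, -0.01 and -0.05 in S replicates. There the strains did not overlap, but congenic replicate 3 and S replicate 2 were about 0.02 apart. No test is given for such a mean over chosen genes.

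**Figure D3:**
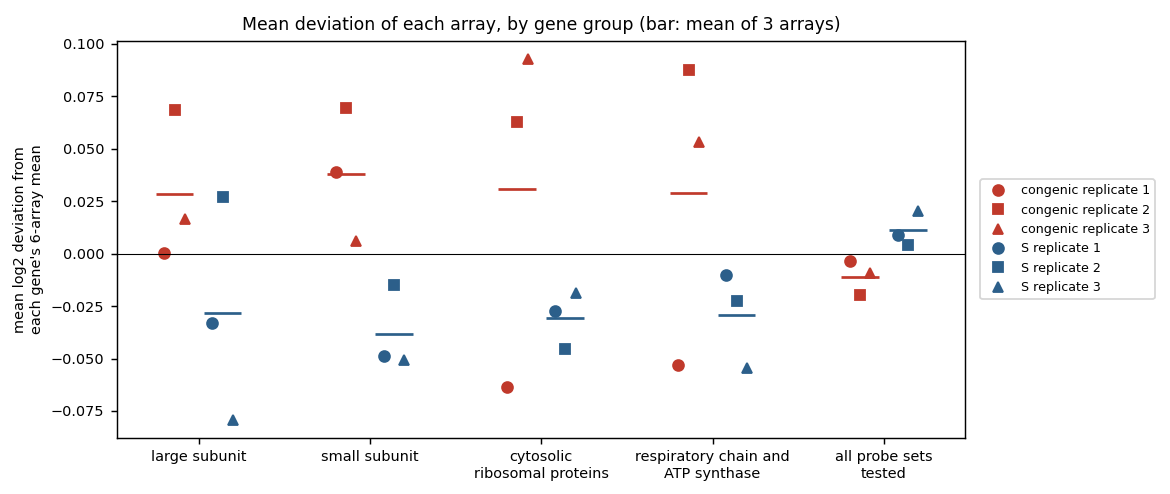
Mean log2 deviation of each array from each gene's mean over the 6 arrays, for the 49 large and 27 small subunit genes, 40 cytosolic ribosomal protein genes, 83 respiratory chain and ATP synthase genes and all 15521 probe sets tested. Congenic rats are left of S rats, marker shapes give the replicate and bars the mean of 3 rats; congenic replicate 1 is among the lowest arrays for the cytosolic and respiratory genes but not for the small subunit.

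Genes of the cytosolic ribosome and of the respiratory chain and ATP synthase, groups of high signal, leaned the same way. The lean did not go with signal in every group. Markers of the loop of Henle and the distal tubule, of median signal 6744, had a median log2 difference of -0.12. The list of mitochondrial aminoacyl-tRNA synthetases, of median signal 403, had 0.14. Of 40 tested cytosolic ribosomal protein genes, those of the ribosome that translates nuclear messages, 33 were positive, with a median of 0.10. Of 83 tested genes chosen by symbol for the respiratory chain and ATP synthase, 62 were positive, with a median of 0.05. Products of the mitochondrial ribosome enter most of these complexes, but not complex II, whose symbols were included. At an unadjusted limma p below 0.05, 8 of these 83 genes were higher and 1 was lower, where 4.72% and 5.61% of all probe sets tested were. Differences between these groups and the mitochondrial ribosome were not tested.

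Proximal tubule markers leaned the same way as the members, and 11 of 14 were positive, with a median of 0.14 and none passing the adjusted threshold. Their summed signal ran from 220477 to 250344 in congenic kidneys, against 197475 to 228506 in S kidneys. Among markers of the loop of Henle and the distal tubule, 2 of 8 tested were positive, with a median of -0.12. Their summed signal ran from 77070 to 86080 in congenic kidneys, against 74801 to 85933 in S kidneys. Such sums of linear signals follow the brightest markers. Here the brightest was Umod, 1 of the 2 positive, at 34704 ± 3709 in congenic and 29245 ± 4179 in S kidneys. Smooth muscle and stromal markers were positive for 1 of 6, with summed signals of 13586 to 16039 in congenic kidneys, against 14692 to 18426 in S kidneys. Both erythrocyte markers were negative, with sums of 9923 to 16814 in congenic kidneys, against 15467 to 22013 in S kidneys. Endothelial markers were positive for 4 of 5 tested (median 0.09), with sums of 7039 to 7242 in congenic kidneys, against 6626 to 7571 in S kidneys. Collecting duct markers were positive for 5 of 8 tested (median 0.07), with sums of 20174 to 22880 in congenic kidneys, against 19003 to 21350 in S kidneys. Immune cell markers were positive for 3 of 4 tested (median 0.09), with sums of 11155 to 12729 in congenic kidneys, against 10634 to 12482 in S kidneys. Most of the immune sum was Cd74, at 11009 ± 835 in congenic and 10441 ± 1000 in S kidneys. The part of any of these cell types in the members' differences was not tested.

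Further lists cover the other steps of mitochondrial translation, and 0 of their tested genes passed the adjusted threshold in either direction. In the list of translation factors, which also holds Slirp, Lrpprc and Oxa1l, 6 of 12 tested genes were positive and 6 negative. All congenic values lay above all S values in 4 of the 12 (33.3%), where 7.98% of all probe sets tested did. They lay all below in 0, where 7.99% did. The 4 were Gfm1, Tsfm, Tufm and Lrpprc, and the last 3 are named after their values were seen. Gfm1, the elongation factor that moves the mitochondrial ribosome along its message, read 1231, 1331 and 1084 in congenic kidneys, against 983, 1078 and 895 in S kidneys. All congenic values were higher, and the log2 difference was 0.30 (SE 0.11; limma, adjusted p = 0.385). Slirp, which stabilises mitochondrial messenger RNA, read 1114 ± 204 in congenic and 1336 ± 233 in S kidneys, a log2 difference of -0.26.

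Of 16 tested genes of ribosome assembly and rRNA modification 11 were positive, with a median of 0.06. Rbfa, which binds the immature small subunit, read 538, 668 and 614 in congenic kidneys, against 508, 418 and 456 in S kidneys. The strains did not overlap, and the log2 difference was 0.40 (SE 0.14; limma, adjusted p = 0.348). Mterf4, a partner of an rRNA methyltransferase, had -0.18. Of 12 tested genes listed as mitochondrial aminoacyl-tRNA synthetases, which charge tRNAs with amino acids, 10 were positive, with a median of 0.14. The brightest of the 12, Gars1 and Kars1, also encode the cytosolic enzymes, so their signals are not those of mitochondrial enzymes alone. Iars2, for isoleucine, had 0.28 and Yars2, for tyrosine, had -0.39.

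Among 17 genes of mitochondrial DNA transcription, replication and their regulators 8 were positive and 9 negative, with a median of -0.03. Gabpa, the DNA-binding subunit of an ETS factor of nuclear mitochondrial genes, read 557, 598 and 560 in congenic kidneys, against 674, 727 and 628 in S kidneys. All congenic values were lower, and the log2 difference was -0.24 (SE 0.12; limma, adjusted p = 0.515). Tfb2m, an initiation factor of mitochondrial transcription, had 0.13. Of 5 ribosome subunits without an Mrp symbol 4 were positive. Aurkaip1, of the small subunit, read 2262, 2616 and 2203 in congenic kidneys, against 1944, 2105 and 1903 in S kidneys, a log2 difference of 0.25. Chchd1, also of the small subunit, had -0.02.

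Second probe sets, dimmer than the first by the rule of choice, did not repeat the excess of positive signs. Of the 24 further probe sets of the members, 17, of 14 genes, lay above the filter, with mean signals from 204 to 959. Of these 17, 6 were positive and 11 negative, with a median of -0.03, while the brightest probe sets of the same 14 genes were positive for 11. Over all probe sets tested 48.2% were positive and the median was -0.0087, and no background of like signal was taken. The sign matched that of the chosen probe set in 9 of 17. A further probe set was higher at an unadjusted p below 0.05, for Mrpl52, and another was lower, for Mrps2, where 4.72% and 5.61% of all probe sets tested passed in those directions. Both are named after their values were seen. That of Mrpl52 read 553, 518 and 652 in congenic kidneys, against 459, 479 and 394 in S kidneys, a log2 difference of 0.37 (limma, adjusted p = 0.404), where its brightest probe set had 0.04.

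Mrps2, the counterpart of bacterial S2, had 3 probe sets that disagreed. The brightest read 1463, 1528 and 1441 in congenic kidneys, against 1395, 1370 and 1421 in S kidneys, a log2 difference of 0.08. The second read 459, 423 and 487 in congenic kidneys, against 650, 441 and 642 in S kidneys, a log2 difference of -0.32. The dimmest read 280, 248 and 144 in congenic kidneys, against 375, 316 and 430 in S kidneys, with a log2 difference of -0.78 and a standard error of 0.24 (limma, adjusted p = 0.282). The strains did not overlap on the brightest and the dimmest, in opposite directions. The second probe set of Mrps9, in contrast, read 881 in congenic and 751 in S kidneys, a log2 difference of 0.24, with the sign of the first.

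**Figure D4:**
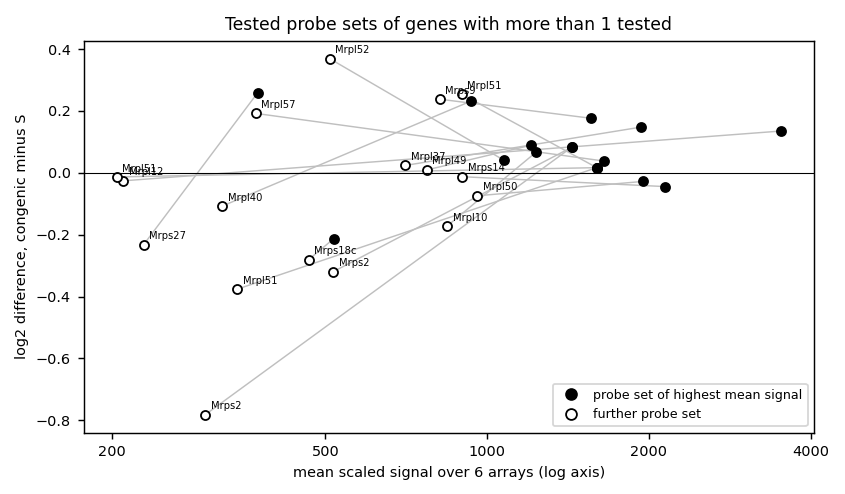
Log2 difference, congenic minus S, against mean scaled signal (log axis) for 14 members with more than 1 tested probe set. Filled circles are the probe sets of highest mean signal, open circles the 17 further ones, and lines join those of 1 gene; 11 open circles lie below 0, the lowest being that of Mrps2 at -0.78.

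The medians of the members were positive under each processing setting tried. Centring added the same amount to every log2 difference, since the mean of the array median log2 signals differed by -0.07, congenic minus S.

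**Figure D5:**
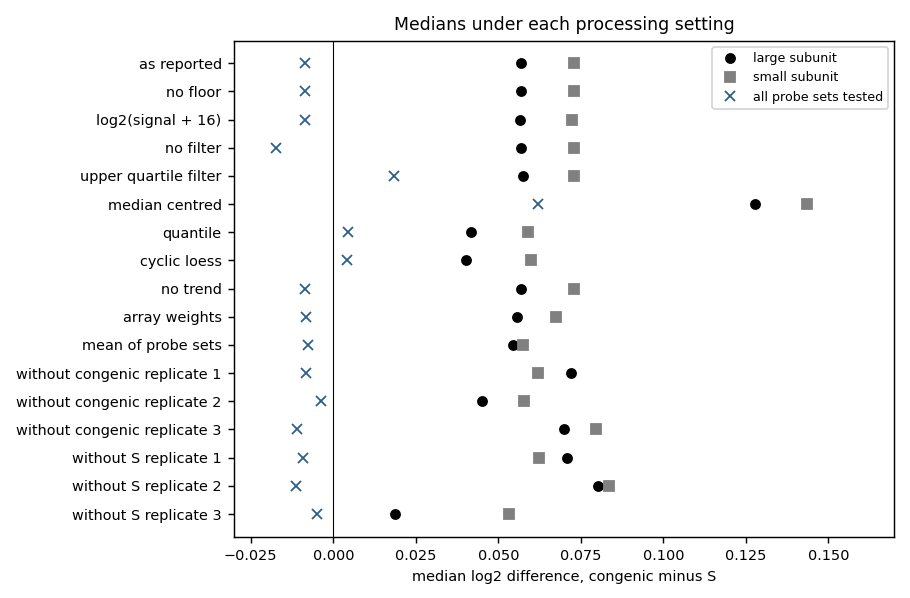
Median log2 difference, congenic minus S, of the large subunit (black circles), the small subunit (grey squares) and all probe sets tested (crosses) under each setting. The subunit medians run from 0.02 (large subunit without S replicate 3) to 0.14 (small subunit after centring each array on its median), where the median of all probe sets is 0.06.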

How the data were processed

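The authors deposited probe set intensities on a linear scale, for which the submitters' processing notes name GCOS 1.4. The labels give neither its settings nor an annotation build. Without the highest and lowest 2% of probe sets, the mean deposited intensities of the 6 arrays averaged 500.0. Of 31099 probe sets 57 array controls were left out. Values under the 10th percentile, a signal of 12.3, were raised to it, log2 was taken, and the 15521 probe sets whose mean log2 signal was above the median (a signal of 165) were tested, with no further normalisation. Strains were compared, congenic minus S, by the linear models of limma 3.58.1 (R 4.3.3; lmFit, eBayes with the variance trended on intensity, and 10.7 prior degrees of freedom) and Benjamini-Hochberg adjustment over all probe sets tested. The number of arrays limits the precision, with a median standard error of 0.14. The fit was tested on simulated data with independent noise and changes of 1.5-fold or more. The members' differences were smaller than these, so that test does not cover them.

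Names are the platform's, and their Entrez numbers were looked up among the genes of GRCr8, where 76 of 76 members matched; 3 are written in lower case there (mrpl9, mrpl11, mrpl24). The platform table gave 20826 probe sets 1 symbol, 436 several and 9780 none. The members and lists were chosen with earlier results of these data known. Genes named are, by subunit and direction, the 5 of smallest p, the 2 of highest and 2 of lowest signal, Mrps30 and Mrps18a, and from each related list the gene of smallest p in each direction. Alternatives tried were no floor, a pseudocount of 16 in its place, other filters and normalisations, the variance model, array weights, the choice of probe set, the subunit of 6 genes and each rat left out in turn. Each array was taken as 1 rat from the animal numbers in the labels, which name no batch. Figures were drawn with matplotlib 3.10.9.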

Additional observations from a re-analysis of the deposited data

How the results depend on the processing

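No member passed adjusted p 0.05 under any alternative run, the smallest adjusted p of a named member being 0.221, while over all probe sets tested the count was 9 after median centring and up to 41 with 1 rat left out (without S replicate 1). The count of members at unadjusted p below 0.05, 2 as reported, was 6 without the filter (7.92% of all probe sets passed), 8 after median centring (12.0%), 1 without the variance trend (9.23%), 4 with array weights (11.3%), 5 with the mean of a gene's probe sets (9.79%) and 1 to 4 with 1 rat left out (7.37% to 12.4%). The count of members with no overlap, 12 as reported, was 19 after median centring (19 above, where 13.9% of all probe sets lay above, and 0 below), and 18 to 24 with 1 rat left out, where 2 rats against 3 separate more often by construction: 11.8% to 14.7% of all probe sets then lay above and 12.1% to 15.8% below. The median difference of the large subunit was 0.13 and of the small subunit 0.14 after median centring, against a median of 0.06 over all probe sets. With 1 rat left out these medians ran from 0.02 to 0.08 and from 0.05 to 0.08, and after quantile normalisation they were 0.04 and 0.06. Centring adds 1 constant to every difference; the cause of the other shifts was not tested.

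Of 26 named members, 16 kept their sign under every alternative and 10 did not, among them Mrps30, which turned only under the constant that centring adds. The sign turned after median centring for Mrps30 (0.017), Mrps14 (0.026) and Mrps21 (0.062), after quantile normalisation for Mrpl17 (-0.035), Mrps16 (-0.0033) and Mrps18a (-0.0075), after cyclic loess for Mrpl17 (-0.041), Mrps16 (-0.015) and Mrps18a (-0.0037), with array weights for Mrpl17 (-0.0016) and with the mean of probe sets for Mrps24 (-0.13). With 1 rat left out the log2 difference ran from -0.26 to 0.033 for Mrpl47, -0.11 to 0.16 for Mrps21, -0.050 to 0.046 for Mrps18a, -0.032 to 0.15 for Mrpl15, -0.23 to 0.024 for Mrpl14, -0.024 to 0.027 for Mrpl17, -0.12 to 0.0095 for Mrps14 and -0.0091 to 0.035 for Mrps16, so that the sign turned for each of these 8. No paired analysis was possible because the labels give the strains no shared replicate numbers. P-values set each difference against the spread between 3 rats of each inbred strain, which limma moderates by that of the other probe sets.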
